A study of Homo sapiens with 36 samples.

Results

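THP-1 cells carrying a short hairpin RNA against NR4A3 (shNR4A3) were compared with THP-1 cells carrying a non-target hairpin (shNT), both kept at 10% CO2 and given no LPS. The 6 libraries were taken by their sample labels, 3 from each line, out of 36 in the series. The whole series crossed 3 lines, the last of which carried a hairpin against NR4A2 (shNR4A2), with 5% or 10% CO2 and with or without LPS, in 3 replicates of each of 12 conditions. THP-1 is an established human monocytic line of leukaemic origin, and all of its lines here had received lentiviral hairpins. Every culture was resuspended in buffered DMEM already equilibrated to its gas and held for 4 h, 5% CO2 being the usual culture level and 10% CO2 the raised one. Where LPS was used it was present at 2.5 µg/mL for the last 2 h. No further hairpin against NR4A3 and no further line carrying it is described in the sources used here, so depletion of NR4A3 and any other difference between the lines cannot be told apart. The replicates are described as individual experiments, all with the same lines, so p-values measure the spread between experiments on these lines.

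NR4A3 (NOR-1) is an orphan nuclear receptor that binds DNA without a known natural ligand and, with NR4A1 and NR4A2, belongs to the immediate-early genes that myeloid cells switch on within minutes to hours of an inflammatory signal. The family is known for roles in monocyte differentiation and survival, for restraint of inflammatory transcription in macrophages and for suppression of myeloid leukaemia. NR4A receptors bind as monomers to an octamer called the NBRE. Resting monocytes carry little NR4A3 transcript, and LPS, the bacterial lipopolysaccharide sensed by TLR4, raises it.

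Total counts were 16568967 to 23844486 in the 6 libraries, with a median of 20432010, and 16171161 to 23929138 over all 36. More gene IDs had at least 1 count in shNR4A3 libraries (28917, 29151 and 28635) than in shNT libraries (25962, 26843 and 23893), including in the smallest of the 6, which was an shNR4A3 library. The lines overlapped at 5% CO2 (28805, 23149 and 26312 in shNR4A3 against 26247, 26241 and 26590 in shNT). They also overlapped with LPS at 10% CO2 (32956, 28509 and 27237 against 25662, 28918 and 28226). Mitochondrially encoded transcripts took 3.18%, 2.91% and 1.55% of counts in shNR4A3 libraries against 3.05%, 2.91% and 2.01% in shNT. The monocyte markers CD4, SPI1 and FCGR1A were present in every library of both lines, the lowest value being 88.2 for FCGR1A in counts scaled to the library total (CPM).

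The NR4A3 transcript itself was at low counts without LPS. NR4A3 (ENSG00000119508, GRCh38, chr9:99821855-99866891) had 6, 8 and 8 counts in the shNR4A3 libraries at 10% CO2 and 14, 6 and 9 in the shNT libraries. These ranges overlap, and the log2 fold change of -0.39 (SE 0.49, adjusted p = 0.735 by edgeR's quasi-likelihood test) was not distinguishable from 0. The label was therefore checked in the other conditions. At 5% CO2 the counts were 5, 3 and 1 in shNR4A3 against 20, 21 and 17 in shNT cells, a log2 fold change of -2.47 (adjusted p = 0.00982). With LPS at 10% CO2 they were 435, 715 and 578 against 1065, 1188 and 1560, a log2 fold change of -1.11 (adjusted p = 0.000321). Both of those comparisons put every shNR4A3 library below every shNT library. The change in the NR4A3 difference from 5% to 10% CO2 was 2.09 on the log2 scale (SE 0.71) and was not called.

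**Figure D1:**
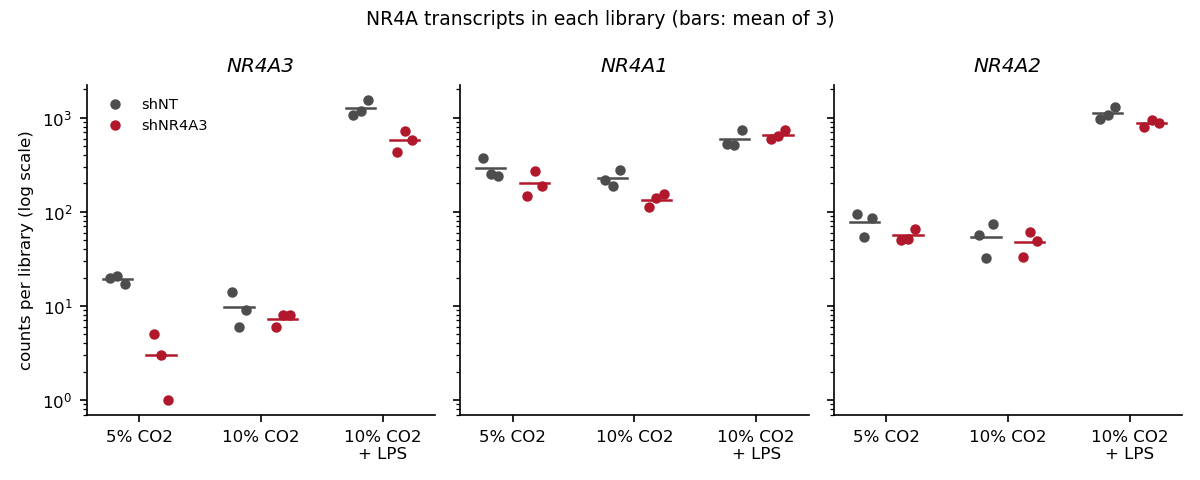
Raw counts per library (log axis) of NR4A3, NR4A1 and NR4A2 in shNT and shNR4A3 cells at 5% CO2, 10% CO2 and 10% CO2 with LPS; points are libraries and bars the mean of 3. NR4A3 lies at 6 to 14 counts in both lines at 10% CO2 without LPS, while the lines do not overlap at 5% CO2 or with LPS.

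Of the related receptors, NR4A1 (Nur77) was lower in shNR4A3 cells. NR4A1 (chr12:52022832-52059507) had 112, 139 and 153 counts in shNR4A3 libraries and 218, 188 and 280 in shNT, with no overlap between the lines, and fell by 0.76 on the log2 scale (SE 0.16, adjusted p = 0.00566). NR4A2 (Nurr1) had 33, 61 and 49 counts against 56, 32 and 75, and its log2 fold change of -0.20 (adjusted p = 0.751) turned positive without the third shNT library. NR4A1 did not pass the test at 5% CO2 (-0.34, adjusted p = 0.475) or with LPS at 10% CO2 (0.18, adjusted p = 0.224).

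Across the transcriptome, 1213 of 17720 genes tested (6.85%) passed an adjusted p under 0.05, and such genes are described as called. Higher transcripts in shNR4A3 cells numbered 619 (3.49%) and lower ones 594 (3.35%), with 166 and 178 of them changed more than 2-fold. All 3 libraries of a line lay on the same side of the other line for 1199 of the 1213, against 11.7% of all genes higher and 12.2% lower without overlap. The median log2 fold change of all genes was -0.01. Protein-coding genes made up 585 of the higher and 541 of the lower calls, while lncRNAs were more often lower (41) than higher (16). Among the 3544 genes with the lowest level (up to 0.861 CPM), 52 were higher and 24 lower with a median log2 fold change of 0.11. The larger number of gene IDs detected in the shNR4A3 libraries of this comparison moves with that median, and its part in the result was not tested. The count of calls depended on single libraries: it was 2031 without the first shNT library, 701 without the second, 595 without the first shNR4A3 library and 766 without the third, and no called gene changed sign in any of these fits. With the replicate number as a block the count was 2394, including all 1213, so genes not called here may be called in that fit.

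**Figure D2:**
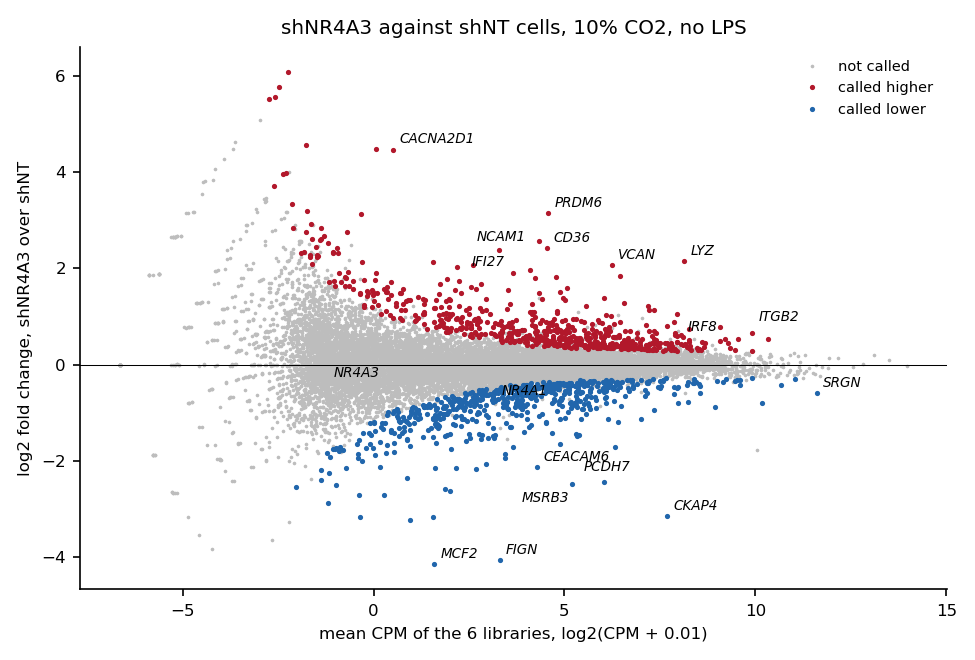
Log2 fold change of shNR4A3 over shNT at 10% CO2 without LPS against mean CPM of the 6 libraries (log2 scale with 0.01 CPM added), 1 point per gene tested; red and blue mark the 619 higher and 594 lower called genes. LYZ and VCAN stand out among abundant higher genes and CKAP4 among abundant lower genes, while NR4A3 lies within the cloud.

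The largest increases among protein-coding genes included surface receptors, channel subunits and secreted proteins. PRDM6 (chr5:123089121-123194266), a transcriptional repressor of the PRDM family, had 43.2, 40.6 and 45.1 CPM in shNR4A3 libraries and 5.64, 4.00 and 4.84 in shNT, an 8.87-fold difference (log2 fold change 3.15, SE 0.13, adjusted p = 7.18e-11). CACNA2D1, an auxiliary subunit of voltage-gated calcium channels, had 2.52, 2.76 and 2.85 CPM against 0.243, 0.054 and 0.0475 (4.47, SE 0.42, adjusted p = 2.19e-06). Both genes were separated between the lines by more than the spread of either. NCAM1, the neural adhesion molecule also known as CD56, had 24.3, 36.8 and 41.9 CPM against 5.27 to 6.03 (2.58, SE 0.18, adjusted p = 6.26e-08). VCAN, a matrix proteoglycan abundant in classical monocytes, had 129, 107 and 131 CPM against 43.7, 21.0 and 22.6 (2.07, SE 0.31, adjusted p = 0.0186). VCAN lost its call without the third shNT or the third shNR4A3 library. The receptor tyrosine kinase EPHA7 (1.90), the prolactin receptor PRLR (2.08), the potassium channel KCNK13 (2.13), the phosphatase PTPN13 (2.77) and the immunoglobulin-family receptor IGSF6 (2.03) were called as well.

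The largest decreases included cytoskeletal, adhesion and signalling genes. CKAP4 (ENSG00000136026, chr12:106237877-106304279), a membrane protein that anchors the endoplasmic reticulum to microtubules, had 36.9, 47.8 and 39.9 CPM in shNR4A3 libraries and 349, 382 and 385 in shNT. It was 8.93-fold lower (log2 fold change -3.16, SE 0.11, adjusted p = 2.63e-12). CKAP4 was the most abundant of the 15 genes with the largest decreases, and its lines were separated at 5% CO2 (-3.22) and with LPS (-2.74) as well. FIGN (chr2:163593396-163736012), the microtubule-severing enzyme fidgetin, had 0.921, 0.921 and 1.47 CPM against 20.3, 19.2 and 16.6 (-4.07, SE 0.19, adjusted p = 3.49e-10). MCF2 (chrX:139581770-139708227), a proto-oncogene, had 0.307, 0.377 and 0.246 CPM against 5.45, 5.73 and 5.98 (-4.16, SE 0.27, adjusted p = 1.77e-08). PCDH7, a protocadherin, had 15.4, 26.1 and 19.6 CPM against 95.1, 125 and 115 (-2.44, SE 0.16, adjusted p = 7.32e-07). KDR, the VEGF receptor VEGFR2 (-3.25), the kinases HUNK (-3.18), BRSK2 (-2.16) and PAK6 (-2.13), the adhesion protein CEACAM6 (-2.14) and the methionine sulfoxide reductase MSRB3 (-2.48) were further called members of this group. Leaving out each library in turn kept the call of 27 of these 30 leading genes. SSC4D lost it without the first shNR4A3 library (adjusted p = 0.104) and CLEC10A without that library or the first or the third shNT library (up to adjusted p = 0.228).

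**Figure D3:**
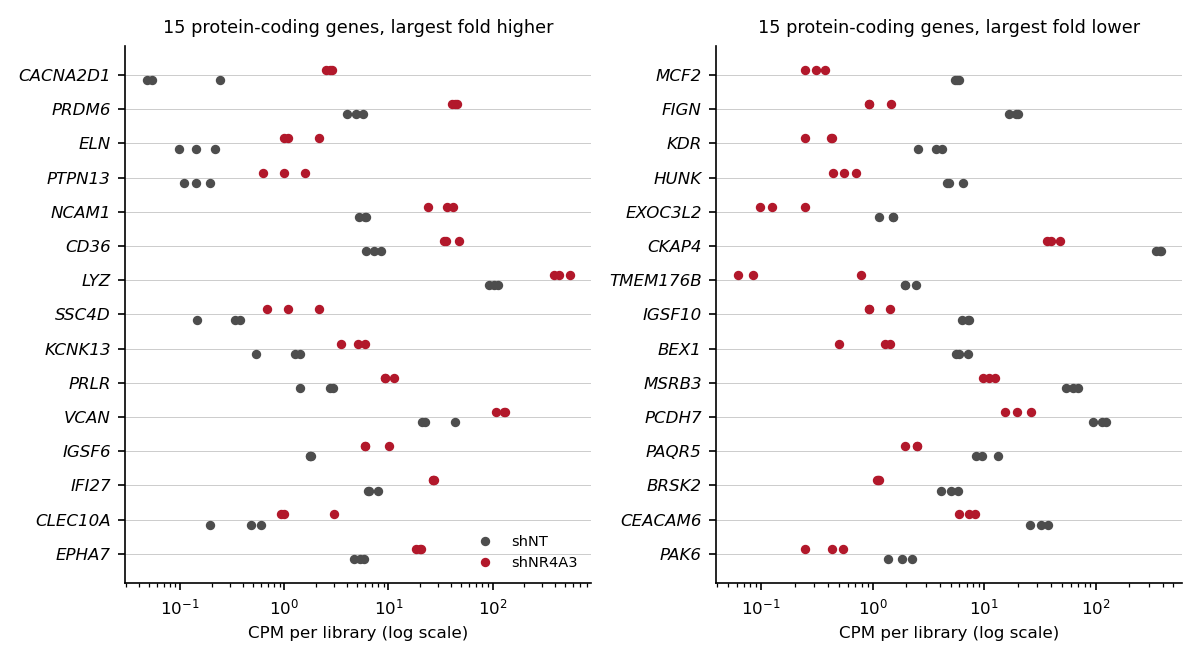
CPM per library (log axis) of the 15 protein-coding genes with the largest called increases (left) and decreases (right), with shNT in grey and shNR4A3 in red. The genes were chosen to have no overlap between the lines, and CKAP4 falls from 349 to 385 CPM in shNT to 36.9 to 47.8 CPM in shNR4A3 libraries.

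Genes that mark mature monocytes were higher or not called in shNR4A3 cells. Of 15 monocyte markers tested, 5 were called higher and 0 lower, against 3.49% and 3.35% of all genes, with a median log2 fold change of 0.50. LYZ (chr12:69348341-69354234), the lysozyme secreted by monocytes, had 552, 392 and 439 CPM in shNR4A3 libraries and 114, 104 and 92.5 in shNT, a 4.46-fold difference (2.16, SE 0.12, adjusted p = 3.02e-09). CD36 (chr7:80369575-80679277), a scavenger receptor for oxidised lipids, had 48.0, 33.9 and 35.9 CPM against 8.46, 7.29 and 6.12 (2.43, SE 0.15, adjusted p = 1.77e-08). MNDA, a nuclear antigen of myeloid differentiation, rose by 1.34, CSF1R, the receptor for macrophage colony-stimulating factor, by 1.14, and ITGAM, the CD11b chain of complement receptor 3, by 0.93. CD14, the LPS co-receptor, had 20.03, 9.04 and 15.8 CPM against 10.6, 5.89 and 10.4 (0.72, adjusted p = 0.28) and overlapped between the lines. The haematopoietic factor SPI1 (PU.1) had a log2 fold change of 0.32 (adjusted p = 0.0538). With each library left out in turn, 5 to 8 of the markers were called higher and 0 lower.

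The list of granule proteins did not share that direction. It mixes granule enzymes with other myeloid products, including LYZ, which is also among the monocyte markers. Of 15 tested, LYZ was called higher and SRGN, the proteoglycan on which granule enzymes are stored, lower (-0.59, adjusted p = 0.000656). The shares of all genes were 3.49% and 3.35%, and the median of the list was -0.07. Without the first shNT library 4 granule proteins were called lower, with a median of -0.15. SRGN had 2719, 2509 and 2233 CPM in shNR4A3 libraries and 4039, 3883 and 3293 in shNT. CTSG, the granule protease cathepsin G, had 377, 546 and 509 CPM against 1030, 1726 and 2162, without overlap, yet its log2 fold change of -1.78 (SE 0.33) had an adjusted p of 0.0501 beside a wide spread among shNT libraries. ELANE (-0.07), AZU1 (-0.20), PRTN3 (-0.36) and MPO (-0.12) were not called.

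Sensors of microbial products formed a further group on the higher side. Of 28 genes for pattern recognition and the inflammasome tested, 8 were called higher and 0 lower, 25 had positive log2 fold changes and the median was 0.54, against 3.49% of all genes called higher and an all-gene median of -0.01. TLR7, the endosomal receptor for single-stranded RNA, had 1.72, 1.26 and 1.72 CPM in shNR4A3 libraries and 0.73, 0.432 and 0.475 in shNT (1.49, SE 0.34, adjusted p = 0.0112). TLR2, which senses bacterial lipopeptides with TLR1 or TLR6, had 120, 115 and 127 CPM against 94.6, 79.7 and 74.4 (0.54, SE 0.10, adjusted p = 0.0024), and TLR6 rose by 0.54. NLRC4 (1.05) and NAIP (0.91), the sensor pair for bacterial flagellin and secretion needles, were called, although reads of NAIP can be shared with its partial copies. NLRP3 (0.32), its adaptor PYCARD (0.32) and the effector protease CASP1 (0.50) were called higher, while TLR4 (0.29), MYD88 (0.24) and GSDMD (0.05) were not. The count depended on single libraries: it was 2 without the second shNT or the first shNR4A3 library, 5 without the third shNT library and 13 without the first shNT library, with medians of 0.36 to 0.59.

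Interferon-stimulated genes, the longest list, held the most calls. Of 45 tested, 17 were called higher and 1 lower, against 3.49% and 3.35% of all genes, 43 had positive log2 fold changes and the median was 0.31. IFI27 (chr14:94104836-94116698), an interferon-alpha-inducible mitochondrial protein, had 26.9, 27.7 and 26.7 CPM in shNR4A3 libraries and 6.42, 6.48 and 7.93 in shNT (1.96, SE 0.13, adjusted p = 1.77e-08). TRIM22, an antiviral ubiquitin ligase, had 13.4, 18.5 and 14.8 CPM against 5.74, 7.24 and 7.93 (1.16, SE 0.16, adjusted p = 0.000131). IFI44 (0.95), IFI44L (0.89), EPSTI1 (0.88), IFIT1 (0.78) and CMPK2 (0.71) rose less. GBP1, a guanylate-binding GTPase, reached only 0.860, 0.544 and 0.344 CPM against 0.146, 0.054 and 0.142, and its log2 fold change of 2.24 (SE 0.62, adjusted p = 0.0379) lost its call in 4 of the 6 fits with a library left out. GBP5 of the same family was the member called lower (-0.69, adjusted p = 0.00504). ISG15 (0.32), MX1 (0.30) and IRF7 (0.42) had positive values that were not called. With each library left out, 9 to 14 members were called higher and 1 lower, the 9 being without the second or the third shNR4A3 library.

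The promoters of this list show how widely its recognition element is shared between members that were called and members that were not. The core of the interferon-stimulated response element, searched as GAAA, any 2 bases and GAAA again on both strands in the 250 bases before each RefSeq gene start (GRCh38.p14), was present in 3.07% of 27305 promoters and in 2.44% of the 12091 promoters matched to genes tested. It was found in 4.43% of the promoters of 474 higher genes and 1.36% of those of 440 lower genes. Of the list, 33 genes matched a promoter, and the core was present in 8 of 13 members called higher (61.5%) and in 12 of 20 that were not (60%). The following windows are shown because they hold the core in 5 called members and in IFITM1, whose level did not pass the test (0.04, adjusted p = 0.962). They are read 5′ to 3′ on the gene's strand, and capitals mark a single match in each. The IFI27 and IFIT1 windows each hold a further match, left in lower case.
IFI27: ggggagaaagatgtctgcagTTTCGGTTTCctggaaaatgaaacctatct
IFI44: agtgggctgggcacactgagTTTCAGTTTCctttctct
EPSTI1: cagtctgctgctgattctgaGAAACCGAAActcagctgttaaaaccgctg
IFIT1: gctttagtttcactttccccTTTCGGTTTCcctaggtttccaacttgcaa
GBP1: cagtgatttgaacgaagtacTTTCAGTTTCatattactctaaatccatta
IFITM1: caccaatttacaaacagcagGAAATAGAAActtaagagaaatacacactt
The windows lie at chr14:94110608-94110657 (plus strand), chr1:78649751-78649788 (plus), chr13:42992262-42992311 (minus), chr10:89392500-89392549 (plus), chr1:89065306-89065355 (minus) and chr11:313980-314029 (plus) in that order. The NBRE octamer to which NR4A receptors bind, AAAGGTCA on either strand, was present in 0.686% of the promoters of genes tested, 0.633% of those of higher genes and 0.682% of those of lower genes. These shares are descriptions of letters in a short window.

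Antigen presentation by MHC class II was partly higher, whereas class I was not called in either direction. Of 15 class II genes tested, 5 were called higher and 0 lower, against 3.49% and 3.35% of all genes, with a median of 0.35. CD74, the invariant chain that guides class II molecules, had 141, 124 and 127 CPM in shNR4A3 libraries and 70.3, 83.2 and 86.4 in shNT (0.71, SE 0.10, adjusted p = 0.000165). HLA-DPA1 (1.03), HLA-DRA (0.77), HLA-DRB5 (0.54) and HLA-DRB1 (0.35) were called as well, with the caution that reads of the DRB genes can be split between near-identical copies. HLA-DRB1 lost its call in 5 of the 6 fits with a library left out, and HLA-DPA1 and HLA-DRA in 3 each. The class II transactivator CIITA had 1.23, 1.88 and 2.26 CPM against 0.681, 1.24 and 1.04 (0.88, adjusted p = 0.11). Without the first shNR4A3 library 2 class II genes were called, and 3 without the second shNT, the third shNT or the third shNR4A3 library. None of the 14 class I genes was called by edgeR, and their median was -0.01. Among 15 dendritic cell genes, the lectin CLEC10A (1.90) and the co-stimulator CD86 (1.22) were called higher and the co-stimulator CD40 lower (-0.90, adjusted p = 0.000605), against the same shares of all genes.

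Paired and inhibitory receptors of myeloid cells set activation thresholds. Of 30 tested, 8 were called higher and 0 lower, against 3.49% and 3.35% of all genes, with a median of 0.18. LILRB4, an inhibitory receptor of monocytes, had 192, 166 and 179 CPM against 102, 98.2 and 103 (0.82, SE 0.09, adjusted p = 9.09e-06). CLEC12A (1.55), LILRA1 (1.34), LILRB1 (1.33), SIGLEC11 (1.07) and SIGLEC1 (0.93) were also called, and the LILR and SIGLEC families hold close paralogues between which reads may be split. Of 22 Fc receptor and complement genes, C1QC (1.93), C2 (0.98), C5 (0.55) and the C1 inhibitor SERPING1 (0.93) were called higher and the complement receptor CR1 lower (-1.42), against the same shares. The median of the 22 was 0.23. C1QC and CR1 stayed below 1.7 CPM in every library. Without the first shNR4A3 library 5 paired receptors and 1 Fc receptor or complement gene were called higher, and without the second shNT library 5 and 2.

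Adhesion molecules and proteases changed in both directions. Of 28 integrin and adhesion genes, 5 were called higher and 2 lower, against 3.49% and 3.35% of all genes, and 9 and 3 without the first shNT library. ITGB2, the beta chain of the leukocyte integrins, had 1288, 1081 and 1177 CPM against 738, 743 and 784 (0.65, SE 0.09, adjusted p = 9.21e-05), and its partner chains ITGAL (1.29) and ITGAM (0.93) rose with it. ITGB7 (0.93) and ITGA4 (0.48), which pair with each other, were called higher, and ITGB5 (-0.79) and the tetraspanin CD82 (-0.55) lower. Of 37 proteases and inhibitors, 8 were called higher and 3 lower, against the same shares, with 5 higher without the second shNT or the first shNR4A3 library and 4 without the third shNR4A3 library. The lysosomal cathepsins CTSZ (0.80) and CTSB (0.74) and the serpins SERPINB8 (0.88) and SERPINB2 (0.61) were among the former. TIMP3, a matrix-bound inhibitor of metalloproteinases, had 786, 778 and 947 CPM against 1733, 1284 and 1360 and was the most abundant of the latter (-0.80, adjusted p = 0.000148), beside CTSK (-0.71) and CST7 (-1.10).

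Chemokines and their receptors had calls in both directions and a median of 0.06, with 14 of 24 members positive. CCL5, a T cell and monocyte attractant, had 117, 98.7 and 121 CPM in shNR4A3 libraries and 221, 200 and 223 in shNT (-0.94, SE 0.10, adjusted p = 5.18e-06). CCL23 (-1.58, adjusted p = 8.12e-05) and CCL2 (-1.29, adjusted p = 0.0473), both monocyte attractants, were also called lower, as was the receptor CXCR3 (-0.77). CCL2 and CXCR3 each lost the call in 4 of the 6 fits with a library left out. The receptors CCR1 (0.70) and CXCR4 (1.08, adjusted p = 1.83e-05) were called higher, which made 2 higher and 4 lower of the 24 tested, against 3.49% and 3.35% of all genes. CXCR4, the receptor for CXCL12, had 44.2, 36.9 and 32.3 CPM against 19.2, 17.6 and 16.8. Of 28 cytokines, the IL-1 receptor antagonist IL1RN (0.68), TNFSF10 (TRAIL, 0.92), TNFSF13B (BAFF, 0.82) and PDGFA (0.76) were called higher and 0 lower, and IL6 and CSF2 had no counts in any of the 6 libraries, which allows up to 3 counts per library and covers counting error only. PDGFA lost its call in 4 of the 6 fits with a library left out.

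Among 27 myeloid transcription factors, 6 were called higher and 3 lower, against 3.49% and 3.35% of all genes, with a median of 0.05. MAF, a factor of macrophage differentiation, had 7.37, 3.73 and 6.53 CPM against 2.68, 1.13 and 1.19 (1.79, SE 0.33, adjusted p = 0.00413). IRF8, which directs monocyte and dendritic cell fate, had 676, 726 and 694 CPM against 486, 499 and 466 (0.53, SE 0.08, adjusted p = 0.000324). KLF2 (1.19), KLF4 (0.82) and RUNX3 (0.46) were further higher factors, and ETS1 was lower (-0.47, adjusted p = 0.00618). RUNX3 lost its call in 5 of the 6 fits with a library left out. Without the third shNR4A3 library 3 factors were called higher and 0 lower, and without the first shNT library 7 and 6. FOS (0.70), FOSL2 (0.52), BTG2 (0.70) and ZFP36 (0.45) were called higher among 23 immediate-early genes and EGR1 lower (-0.47). Among 14 NF-kB genes, the inhibitor NFKBIE (0.43) and the regulator BCL3 (0.71) were called higher. EGR1 lost its call in 5 of the 6 fits with a library left out, NFKBIE in 4 and BCL3 in 3, and 0 NF-kB genes were called by edgeR without the second shNT, the first shNR4A3 or the third shNR4A3 library.

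**Figure D4:**
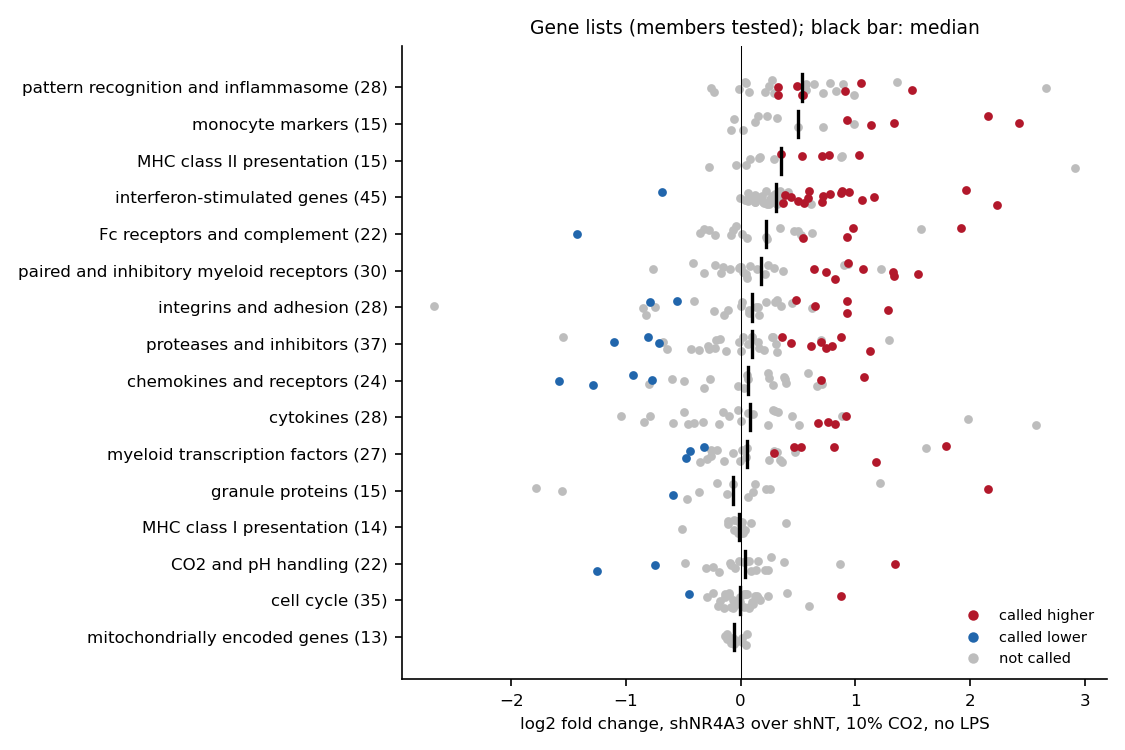
Log2 fold change of shNR4A3 over shNT at 10% CO2 without LPS for the tested members of 16 gene lists, with the number tested in brackets; red and blue points were called higher and lower, grey points were not called, and black bars are medians. Medians run from 0.54 for pattern recognition and 0.50 for monocyte markers to -0.07 for granule proteins.

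Mitochondrially encoded, RNA interference and cell cycle genes had few calls, while shares in some metabolic and stress lists lay above those of all genes (3.49% higher, 3.35% lower). The 13 mitochondrially encoded genes had 0 calls by edgeR and a median of -0.06, which ran from -0.22 without the first shNR4A3 library to 0.21 without the third and so changed direction. The 10 genes of the RNA interference machinery had 0 calls and a median of 0.10, and the 35 cell cycle genes 1 higher (CCND1, 0.88) and 1 lower (CDK6, -0.45) with a median of -0.00. Of 27 glycolysis and hypoxia-inducible genes HK1 (0.43) was called higher, and BAG3 (0.41), a co-chaperone of HSP70, was called among 20 heat shock genes. HK1 lost its call in 4 of the 6 fits with a library left out, and BAG3 in 3. INSIG1 (0.65), MSMO1 (0.50) and HMGCS1 (0.37), all targets of the sterol-sensing factor SREBP2, were among the 4 genes called higher of 21 for cholesterol synthesis, with 0 lower, and 2 were called higher without the second shNT or the first shNR4A3 library. Of 25 genes for scavenging and lipid handling, CD36 and the lysosomal SCARB2 (0.62) were called higher and the apolipoprotein APOC1 lower (-1.44), with a median of 0.26. In the 19-member ATF4 amino acid response list, PHGDH (0.35) and PSPH (0.40) of serine synthesis were called higher and TRIB3 (-0.61) and the cystine transporter SLC7A11 (-0.60) lower, with 0 higher in 3 of the 6 fits with a library left out. Among 22 genes for CO2 and pH handling, the proton-sensing receptor GPR65 was called higher (1.35, adjusted p = 0.000614) and the bicarbonate transporter SLC4A4 (-1.25, adjusted p = 0.000842) and the exchanger SLC9A7 (-0.74) lower. SERPINB2, NLRP3 and SLC39A14 were called higher and SLC39A8 lower of 24 genes that the study names as CO2-responsive, a list the study chose on these samples and therefore no independent evidence of a direction, and its higher count was 0 without the second shNR4A3 library.

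Markers of other cell types were mostly at low levels, NCAM1 and PAX5 being the exceptions. The summed level of 6 T cell markers was 1.84 to 3.01 CPM in shNR4A3 and 0.827 to 1.03 in shNT libraries, with CD5 called higher (1.61), and that of 5 B cell markers 8.97 to 10.5 and 19.1 to 24.6 CPM, with the B cell factor PAX5 called lower (-1.86, adjusted p = 6.36e-06). NCAM1 made up nearly all of the 4 NK cell markers, whose sum was 25.2 to 42.2 against 5.89 to 7.05 CPM, while GNLY stayed under 0.9 CPM. HBA2 and HBB of 6 erythroid markers and PPBP of 4 megakaryocyte markers had 0 counts in all 6 libraries. The megakaryocyte marker GP9 was called lower (-1.23), but lost its call by DESeq2 and in 5 of the 6 fits with a library left out. Of the epithelial and fibroblast markers tested, 0 of 3 and 0 of 4 were called by edgeR, and the sums over all 5 and 6 stayed under 5 CPM.

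The same contrast at 5% CO2, which shares no library with that at 10%, asked whether the difference between the lines belonged to the raised CO2. It called 1097 genes (6.19%), 596 higher (3.36%) and 501 lower (2.83%), of which 717 were also called at 10% CO2, all 717 in the same direction, which is 59.1% of the calls at 10% and 65.4% of those at 5%. Of the 1213 genes called at 10% CO2, 1203 (99.2%) had the same sign at 5%, against 70% of all genes. The interaction of line and CO2 called 0 of 17720 genes (0%) by edgeR and 0 by DESeq2. By edgeR 412 genes had an unadjusted p under 0.05, a smaller share of those tested than 0.05 itself. Of the 30 leading genes, 28 were called the same way at 5% CO2. The exceptions were ELN, which encodes elastin, with log2 fold changes of 3.14 at 10% and 0.78 at 5% CO2 (adjusted p = 0.763), and SSC4D, a scavenger receptor-like protein, with 2.14 and 0.47 (adjusted p = 0.619). Neither had a called interaction. ELN had 2.15, 1.09 and 0.982 CPM in shNR4A3 libraries and 0.0973, 0.216 and 0.142 in shNT at 10% CO2.

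With LPS at 10% CO2, again in libraries of their own, the contrast called 2572 genes (14.5%), 1294 higher (7.3%) and 1278 lower (7.21%), with 711 of them also called without LPS. That is 58.6% of the calls without LPS and 27.6% of those with it, and 704 of the 711 had the same direction. Of the 1213 genes, 1161 (95.7%) kept their sign, against 69.5% of all genes. Of the 30 leading genes, 24 were called the same way with LPS. The interaction of line and LPS called 35 genes (0.198%), 32 with a more positive (0.181%) and 3 with a more negative difference (0.0169%) under LPS, and in 27 of the 35 the sign of the difference changed. This count ranged from 9 to 43 with each library left out, 9 being without the third shNT library with LPS.

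CXCR4 had the smallest adjusted p of these interactions. Scaled over the 18 libraries of both lines at 5% CO2, 10% CO2 and 10% CO2 with LPS, CXCR4 was at 42.0, 34.8 and 30.6 CPM in shNR4A3 and 18.2, 16.7 and 15.9 in shNT cells without LPS at 10% CO2, and at 14.7, 12.9 and 15.9 against 21.92, 19.9 and 21.96 with LPS. CXCR4 was thus above shNT at rest and below it with LPS, each time without overlap, and the interaction was -1.65 on the log2 scale (SE 0.17, adjusted p = 0.000112). TP53INP2, a nuclear protein of autophagy, was at 18.3, 18.2 and 20.9 CPM against 42.7, 39.4 and 43.1 at rest and at 170.5, 116 and 131 against 104, 74.8 and 87.7 with LPS (interaction 1.75, SE 0.18, adjusted p = 0.000212). STAT4, a signal transducer for IL-12, moved from -1.01 at rest to 0.58 with LPS (interaction 1.58, adjusted p = 0.00566), and the lncRNA MROCKI, transcribed next to MARCKS, from -0.56 to 0.65 (1.19, adjusted p = 0.0051). The lncRNA LINC01547 did not differ beyond its spread at rest (-0.18, adjusted p = 0.637) and was higher with LPS (1.16, interaction 1.33, adjusted p = 0.00566). MARCKS itself moved from -0.75 to 0.98 (interaction 1.72, adjusted p = 0.0131). NR4A1, lower in shNR4A3 cells at rest, had an interaction of 0.93 (adjusted p = 0.0315).

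**Figure D5:**
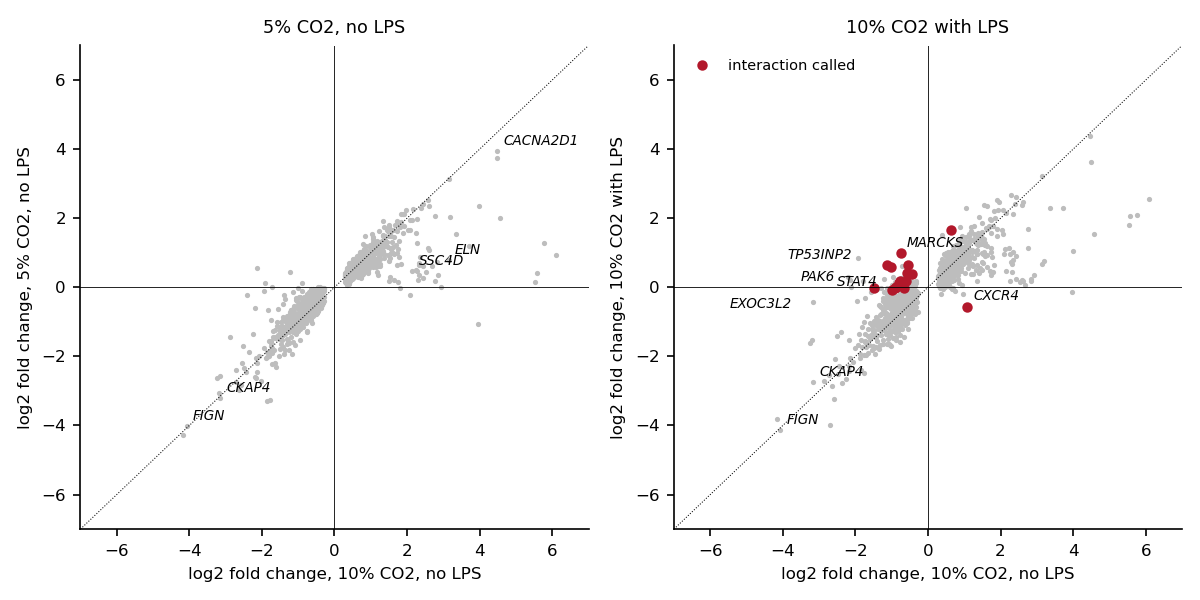
Log2 fold change of shNR4A3 over shNT at 5% CO2 without LPS (left) and at 10% CO2 with LPS (right) against that at 10% CO2 without LPS, for the 1213 genes called in the last; the dotted line marks equal values and red points have a called interaction with LPS. At 5% CO2 1203 genes keep their sign, and CXCR4, TP53INP2, STAT4 and MARCKS cross 0 with LPS.

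A direct test of shNR4A3 against shNR4A2 cells at 10% CO2 without LPS, which uses the same shNR4A3 libraries and leaves out shNT, called 1339 genes (7.56%), 621 higher (3.5%) and 718 lower (4.05%) in shNR4A3 cells. Because the leading genes were chosen in the same shNR4A3 libraries, their values here are a description. Of the 30 leading genes, 17 were called in the same direction as against shNT. Among them were FIGN (-4.26), PRDM6 (3.18), EPHA7 (2.78), CKAP4 (-2.01), MCF2 (-2.87) and IFI27 (1.71). NCAM1 (-0.29, adjusted p = 0.435), PRLR (-0.19, adjusted p = 0.473), LYZ (0.49, adjusted p = 0.0576), HUNK (-0.02, adjusted p = 0.989) and EXOC3L2 (-0.14, adjusted p = 0.943) differed from shNT without passing the test against shNR4A2. The smallest adjusted p values of this comparison also included AKR1C2, an aldo-keto reductase (-3.74), and SEZ6L2, a membrane protein of neurons (1.59), which had log2 fold changes of -0.36 (adjusted p = 0.0452) and 0.01 (adjusted p = 0.971) against shNT.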

How the data were processed

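RNA was selected by polyadenylation and sequenced as paired reads from 36 THP-1 cultures. The authors deposited raw counts per gene, 1 file per library. Trimming was by Trimmomatic 0.36, alignment by STAR 2.5.2b on GRCh38 and counting by featureCounts from Subread 1.5.2. The annotation release and the strand setting are not given in the sources used here, so a gene and its antisense partner may not be told apart. Gene symbols were taken from a reference name table for 40907 of 57500 IDs (71.1%), and 1 of 666 list entries found no ID. Gene positions on GRCh38 are those in the deposited count files, and gene types are those of GENCODE.

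Genes were kept by filterByExpr (minimum count 10, minimum total 15) over the 12 conditions, which left 17720. Each comparison used its own libraries, TMM scaling and the robust quasi-likelihood F test (edgeR 4.0.16, R 4.3.3). P-values were adjusted by Benjamini and Hochberg over every gene kept. CPM values are scaled by TMM over the 6 libraries unless stated. Standard errors (SE) were derived from each log2 fold change and its F statistic. The study's methods name DESeq2, and DESeq2 1.42.0 was run as an alternative, beside other scalings, filters, thresholds, fits and each library left out. The test was checked on simulated counts that were drawn independently for each library, with no shared effect of replicate number. No library was a copy of another.

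The comparison and the 34 gene lists were chosen with earlier results of these data known. Named genes were the NR4A receptors, the 15 called protein-coding genes with the largest fold in each direction (at least 1 CPM in the higher line, no overlap), up to 6 called members per list, members a list description needs, and the 5 genes with the smallest adjusted p in each interaction and against shNR4A2. MARCKS and the genes of chromosomes 13 and 17 in the closing section were named after their values were seen. Some list members are not reported here.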

Additional observations from a re-analysis of the deposited data

Results flagged for a closer look

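The difference between shNR4A3 and shNT cells at 10% CO2 changed with LPS, by the interaction test, for 35 genes. Among the 5 interactions with the smallest adjusted p, the largest were those of TP53INP2 (1.75 on the log2 scale), CXCR4 (-1.65) and STAT4 (1.58). LINC01547 (1.33) and MROCKI (1.19) followed. MARCKS, outside those 5, had an interaction of 1.72. In CXCR4, TP53INP2, STAT4 and MROCKI the difference was called in both conditions with opposite signs, and 7 genes in all showed this, the others being MARCKS, IRS1 and HELZ2. What accounts for these interactions was not tested.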

How the results depend on the processing

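The 619 higher and 594 lower calls at 10% CO2 became 1236 and 1158 with the replicate number as a block, which included all 1213 of the original calls, 283 and 280 at an adjusted p under 0.01, and 295 to 1033 and 300 to 998 with each library left out. Same-numbered libraries of the lines correlated at 0.13, 0.07 and 0.08 over all genes and at 0.37, 0.45 and 0.29 over genes of at least 10 CPM, each library correlating best with its own number, and the numbers were taken as not pairing the libraries because the first set did not pass 0.1 throughout. DESeq2 called 604 higher and 528 lower, sharing 1023 genes, and other scalings, the other filters and 1 fit to all 36 libraries gave 1055 to 1473 calls, with no sign changed among the 1213. The 35 interactions with LPS became 99 by DESeq2, 135 without a filter, 179 with the block, 6 in the fit to all libraries, 7 at 0.01 and 9 to 43 with a library left out, and the interaction with CO2 kept 0 under every alternative run. Against shNR4A2 the calls became 3673 with the block, 530 at 0.01, 829 with a fold of at least 1.4 and 614 to 1399 with a library left out. At 5% CO2 they became 2299, 491 at 0.01 and 667 to 1014, and with LPS 4409, 1138 at 0.01, 1404 with the fold minimum and 1269 to 2100. The cause was not tested. NR4A2 ranged from -0.422 to 0.0668 with each library left out, positive without the third shNT library, and SEZ6L2 from -0.0688 to 0.0625, negative without the first shNT or the first shNR4A3 library (-0.0218) and without a filter (-0.00364). Of 126 named and called genes, 70 kept their call under every alternative and 47 lost it with at least 1 library left out. NR4A3 had 6 to 14 counts in a library at 10% CO2 without LPS, and its difference between the lines was not called there. At 5% CO2 a difference was called at 5, 3 and 1 counts in shNR4A3 against 20, 21 and 17 in shNT libraries.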

Other observations

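Neighbouring genes moved together in 2 places, both noticed after the values were seen. On chromosome 13 (GRCh38), TEX30 (-1.03, adjusted p = 6.85e-06), POGLUT2 (-1.54, adjusted p = 6.86e-06) and BIVM (-0.82, adjusted p = 0.000527) lie within chr13:102765990-102841535 and were all lower in shNR4A3 cells, with values at 5% CO2 of -0.97, -1.51 and -0.84 and with LPS of -1.25, -1.82 and -1.05. Their neighbours on either side, TPP2 (-0.04, adjusted p = 0.896) and ERCC5 (-0.15, adjusted p = 0.494), were not called. Against shNR4A2 cells, in a comparison that shares the shNR4A3 libraries and is no independent evidence, TEX30 (-0.64), POGLUT2 (-1.42) and BIVM (-0.51) were called lower too.

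On the short arm of chromosome 17, 46 of 49 genes of at least 5 CPM from PIMREG (start 6444415) to SCO1 (end 10698375) had positive log2 fold changes, with a median of 0.28, 8 called higher and 0 lower. The medians of the same genes were 0.36 at 5% CO2, 0.39 with LPS and 0.25 against shNR4A2, which shares the shNR4A3 libraries. In the next stretch on that chromosome 38 of 45 genes were positive with a median of 0.26, 11 called higher and 2 lower. The 65 genes before the region had a median of 0.01 and the 482 beyond both stretches one of -0.00, as against -0.01 for the 10219 genes not on chromosome 17. Of those 10219 genes, 427 were called higher and 408 lower, and of all genes tested 3.49% and 3.35%. Runs of 25 consecutive genes were taken without chromosomes 8 and Y and the mitochondrial genome. Over 9927 such runs the highest median was 0.34 and started within this region, and the lowest was -0.22 on chromosome 4. ASGR2 (1.04), PIK3R5 (0.90), DLG4 (0.57), ZBTB4 (0.55) and GABARAP (0.54) were among the called genes of the region. The cause of either block was not tested.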
